A study of Mus musculus with 2 samples.

Results

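A group of 66 cells with transcripts of Cyp2f2 or of a basal keratin, among 3889 cells of the mouse arcuate nucleus and median eminence, was examined for what it expressed. Its members were the cells with at least 1 unique molecular identifier (UMI, a tag that counts single captured RNA molecules) of Cyp2f2, Krt5 or Krt14, the 3 genes of the rule. Cells were kept with at least 300 genes and at most 20% of UMIs from mitochondrial genes. The wild type library, a pool of 7 CD-1 mice, held 38 members in 2405 cells. The Irx3/5 double heterozygote library, a pool of 5 CD-1 mice heterozygous for both transcription factors Irx3 and Irx5, held 28 members in 1484 cells. All mice were 7 to 8 weeks old, and live cells from the dissected tissue were sorted before Drop-seq, a droplet method that reads the 3' ends of transcripts. With 1 pooled library per genotype and no map from cells to mice, no difference has a replicate check. Intervals are 95% exact and cover counting error only, and paired values give wild type first.

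Epithelial cells form sheets sealed by claudins and held by the adhesion molecules Epcam and Cdh1, and their intermediate filaments are built of keratins. Krt8 and Krt18 pair in simple epithelia, while Krt5 and Krt14 pair in the basal layer of stratified and airway epithelia, where the transcription factor Trp63 (p63) maintains the basal state. Cyp2f2 is a cytochrome P450 best known from airway club cells, where it oxidises inhaled compounds. The pituitary, which adjoins the median eminence through the pars tuberalis, also derives from an epithelium, and its stem cells are marked by Sox2 and Sox9.

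Cyp2f2 (ENSMUSG00000052974) lies on the plus strand of chromosome 7 from 27119955 to 27133660 in GRCm38.p6, the assembly of the mm10 build that the submitters name. Krt5 (ENSMUSG00000061527) lies on the minus strand of chromosome 15 from 101707069 to 101712905, and Krt14 (ENSMUSG00000045545) on the minus strand of chromosome 11 from 100203162 to 100207510. Epcam (ENSMUSG00000045394) lies on the plus strand of chromosome 17 from 87635979 to 87651127. The 110 bases before the RefSeq start of Cyp2f2 (chr7:27119845-27119954, plus strand) and of Krt5 (chr15:101712906-101713015, minus strand) are shown because these were the commonest of the 3 genes of the rule and Trp63, a p53 family factor, was found in 18 members. Capitals mark a match to the 10-base half-site of the p53 family response element, and each stretch holds 1 half-site, not a full element. The half-site was searched by name as a degenerate motif that is its own reverse complement, so 1 pass covers both strands.
Cyp2f2: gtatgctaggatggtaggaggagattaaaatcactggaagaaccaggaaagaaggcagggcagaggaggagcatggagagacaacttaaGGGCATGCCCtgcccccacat
Krt5: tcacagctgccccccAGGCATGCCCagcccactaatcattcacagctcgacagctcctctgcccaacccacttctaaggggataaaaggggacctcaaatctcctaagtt
The match began 21 bases before the start of Cyp2f2 and 95 bases before that of Krt5. Of 6 genes described here whose window of 300 bases (250 before the start and 50 after it) was searched, these were the 2 with a match, and Epcam, Krt18, Cbr2 and Fxyd3 had none. Krt14 was not searched, since its window in the table lies within the gene. Among all 32851 windows of that length in the RefSeq table, 8.36% held 1 or more matches. A match describes these letters and is not a measured binding site.

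Members made up 1.58% of wild type cells (1.12 to 2.16) and 1.89% of double heterozygote cells (1.26 to 2.72). The ratio was 1.19 (0.706 to 1.998), so a difference in share was not detectable at this depth. With each cell thinned to 500 UMIs and members chosen anew it was 1.90 (0.980 to 3.71). Members held 56155 and 56002 UMIs in all, with medians of 1338.5 and 1132.5 per cell, against 1274 and 1160.5 over all used cells. The deepest member held 6839 and 11047 UMIs, or 12.2% and 19.7% of its library's member UMIs, so a single cell can set a summed level. Scrublet marked 17 of the 3889 cells (0.437%), none of them a member. So few calls give no assurance on doublets, which may remain. No member barcode occurred in both libraries, and 3 barcodes of the full tables did. In wild type 5 member barcodes fell into 2 sets that were equal in their first 11 of 12 bases. Joined, they left 35 wild type members and 28 in the double heterozygote.

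Cyp2f2 was the commonest of the 3 genes of the rule. It was found in 30 wild type members with 112 UMIs and in 25 double heterozygote members with 122 UMIs, at up to 18 and 23 UMIs in a cell. Krt5 was found in 17 and 10 members with 39 and 40 UMIs, and Krt14 in 5 and 10 members with 6 and 28 UMIs. Cyp2f2 stood alone in 33 members, beside Krt5 in 11, beside Krt14 in 4 and beside both in 7. Krt5 alone was found in 7 members, all wild type, Krt14 alone in 2 and the keratin pair without Cyp2f2 in 2. These counts describe the rule and support nothing beyond it. Just inside its threshold, 15 wild type and 4 double heterozygote members had a single UMI of these genes, while 23 and 24 had more. All cells outside had 0.

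**Figure D1:**
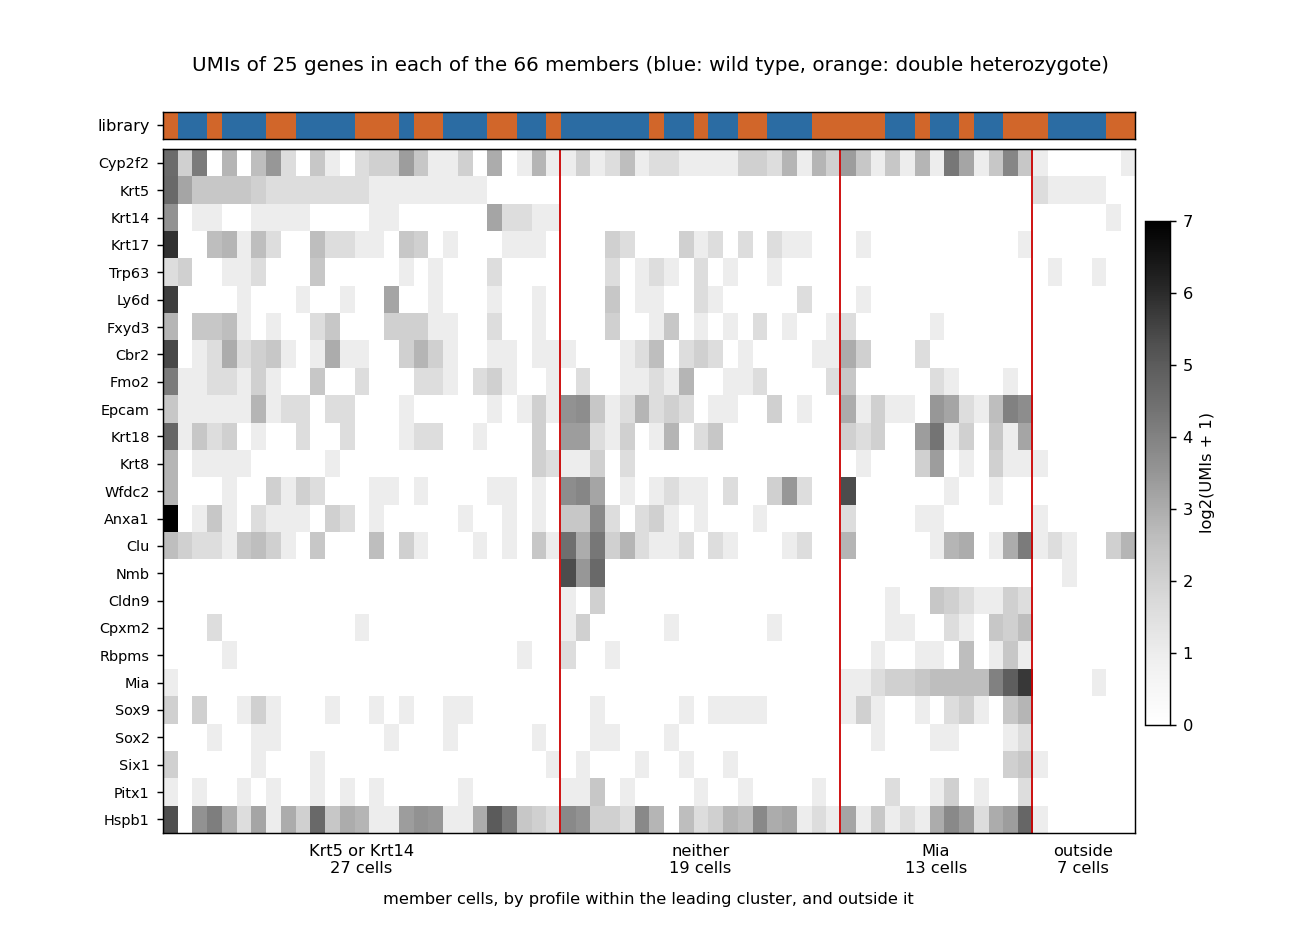
Each column is 1 of the 66 members and each row a gene, with shade as log2(UMIs + 1) and a strip giving the library. Members of the leading cluster are ordered by Krt5 or Krt14 (27 cells), neither these nor Mia (19 cells) and Mia (13 cells), and the 7 members outside the cluster stand at the right with few epithelial genes.

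The members were largely 1 group of cells by genes that the rule did not use. When both libraries were clustered without the 3 genes of the rule, 59 of the 66 members (89.4%, 79.4 to 95.6) fell into a single cluster of 79 cells, the leading cluster. Its top genes other than Cyp2f2 were Krt18, Anxa1, Wfdc2, Epcam, Nmb, Cbr2, Krt17, Hspb1 and Ly6d, which matched the epithelial label. The other 20 cells of this cluster had no UMI of Cyp2f2, Krt5 or Krt14, yet 19 of them had Epcam. They were deeper than the members beside them, with medians of 2285 and 1418 UMIs against 1271.5 and 1098.

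The 7 members outside the leading cluster did not carry the epithelial pattern. They were 4 wild type and 3 double heterozygote cells, and 6 of them had exactly 1 UMI of the 3 genes. Of these cells 3 lay in a cluster led by the neuropeptide genes Oxt, Cartpt and Gal, among them the deepest member of each library. Another 2 lay in a tanycyte-like cluster, 1 in a cluster led by Foxb1 and 1 in a cluster led by Kcnq1ot1. Over all 3810 cells outside the leading cluster the share was 0.184% (0.0739 to 0.378). The part of free RNA in these 7 cells was not tested. The oligodendrocyte-like cluster, whose median depth of 1223 UMIs was close to the 1234.5 of members, had no such cell in 390, which allows a share of up to 0.769%.

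Genes of epithelia other than those of the rule were high in members of both libraries. UMIs of at least 2 of 20 such genes were found in 68.4% of wild type members (51.3 to 82.5) and 64.3% of double heterozygote members (44.1 to 81.4), against 4.44% and 3.78% of other cells. With each cell thinned to 500 UMIs, the shares were 43.3% and 57.7% against 1.69% and 1.62%. Thinning left out 8 and 2 members and kept the others as chosen before it. This pattern was not particular to members. The cells of the leading cluster that were not members stood higher, at 100% of 11 and 88.9% of 9 cells. Thinned, they stood at 100% of 11 and 85.7% of 7 cells. Of the 20 genes 12 had at least 10 UMIs in members, and 11 were more than 2-fold higher in both libraries. The exception, the protease inhibitor Spint2, had 24 and 14 UMIs and stood below 2-fold in the double heterozygote. As background, 15% of 2481 genes with at least 10 UMIs were higher past 2-fold in both libraries and 2.82% were lower. The list's median log2 fold was 5.23, and that of all these genes 0.27. Because cells were chosen as members on epithelial genes, these folds are a description.

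Epcam, the epithelial adhesion molecule, was found in 29 of 38 and 13 of 28 members. It had 94 and 52 UMIs, with a median of 1 and 0 and a maximum of 12 and 15 UMIs in a cell. This was 32.5-fold (25.2 to 41.5) and 20.04-fold (14.2 to 27.8) the level of other cells. Epcam was not particular to members, since 47.0% of 134 pars tuberalis-like cells also had it, while 0 of 390 oligodendrocyte-like cells did. The simple keratin Krt18 was found in 19 and 13 members with 76 and 63 UMIs, and its partner Krt8 in 11 and 9 members with 26 and 17 UMIs. Krt18 was 43.3-fold (32.2 to 57.9) and 56.4-fold (38.7 to 82.3) the level of other cells. Krt7 and Krt19, keratins of ductal and simple epithelia, had 7 and 14 and 9 and 21 UMIs. Over the keratin family of 22 genes, 17 had a row in the tables and 13 had a UMI in members. The 5 outside the rule with at least 10 UMIs (Krt7, Krt8, Krt17, Krt18 and Krt19) were all higher past 2-fold in both libraries.

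Junction genes followed the keratins. Of 21 such genes 8 had at least 10 UMIs in members and all 8 were more than 2-fold higher in both libraries. The tight junction claudins Cldn4 (15 and 17 UMIs), Cldn7 (17 and 18) and Cldn3 (10 and 11) were among them. Cldn4 was 86.8-fold (38.5 to 198) and 142-fold (53.4 to 440) the level of other cells. Cldn10 had the most UMIs, 55 and 40, at a smaller 4.03-fold and 5.10-fold, and it was also a leading gene of a tanycyte-like cluster. The adherens junction gene Cdh1 had 6 and 4 UMIs in 8 members.

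**Figure D2:**
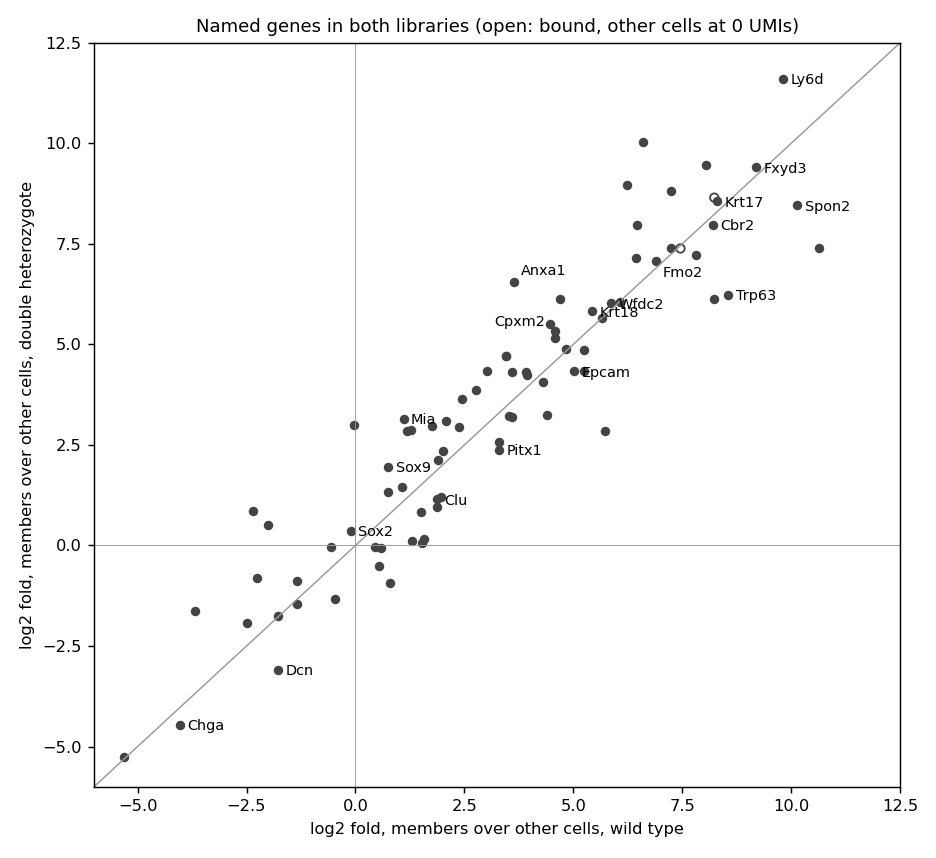
Each point is a named gene with at least 10 UMIs in members, and the axes give its log2 fold of members over other cells in each library, wild type across and double heterozygote upward, with the line of equality. Epcam, Krt17, Fxyd3 and Cbr2 lie at the upper right, Sox2 near 0 and the granin gene Chga at the lower left.

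Basal squamous genes were found in part of the members. Krt17, a keratin of basal and stressed epithelia, had 42 and 75 UMIs in 17 and 11 members. The highest wild type cell held 6 UMIs and the highest double heterozygote cell 57, so 48.7% of all Krt17 UMIs lay in 1 cell. Trp63 had 20 UMIs in 13 and 9 UMIs in 5 members. It was 376-fold (126 to 1514) and 75.2-fold (23.9 to 257) the level of other cells, where it had 4 and 6 UMIs. Sfn, a 14-3-3 protein of stratified epithelia, had 4 and 27 UMIs. These 3 were the only genes of the 14 listed with at least 10 UMIs in members, and all were higher past 2-fold in both libraries. The hemidesmosome collagen Col17a1 had 4 and 5 UMIs in 9 members. Krt13, a keratin of upper layers, was at 0, and the stress keratin Krt6a had 5 UMIs in a single cell.

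Genes of pituitary stem and folliculostellate cells were mixed. Of 16 listed, 8 had at least 10 UMIs in members and 6 were higher past 2-fold in both libraries, with a median log2 fold of 2.77. The pituitary homeobox gene Pitx1 (19 and 8 UMIs in 13 and 7 members) was among them. Pitx1 was 9.86-fold (5.77 to 15.96) and 5.21-fold (2.17 to 10.8) the level of other cells. It was found in 30.3% of members, 62.7% of pars tuberalis-like cells and 0 of 390 oligodendrocyte-like cells. Cpxm2, a carboxypeptidase-like protein on the stem cell list, had 14 and 12 UMIs, and the RNA-binding gene Rbpms 7 and 12. Anxa1 had 39 and 147 UMIs, but 69.9% of them lay in 1 cell.

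The defining gene of that list, Sox2, did not pass 2-fold in either library. It had 8 and 7 UMIs, a fold of 0.925 (0.398 to 1.83) and 1.28 (0.512 to 2.68) against other cells. Sox2 was found in 21.2% of members, against 35.7% of tanycyte-like and 42.9% of ependymal-like cells, 5.13% of oligodendrocyte-like cells at a like depth and 4.48% of pars tuberalis-like cells. Sox9 had 18 and 26 UMIs, 1.69-fold and 3.89-fold the level of other cells, and passed 2-fold only in the double heterozygote. S100b, a marker of folliculostellate cells, and Lhx4 were at 0 in members, and Lhx3 had 3 UMIs. Mia was shared with brain cells, found in 22.7% of members, 54.1% of tanycyte-like and 78.0% of ependymal-like cells, and in 1.54% of oligodendrocyte-like cells. The summed list reached 2974 and 6018 CPM (the usual scaling of UMIs by the total UMIs of the cells summed) in members. Of its 337 double heterozygote UMIs, 1 member held 130 of Anxa1 and another held 52 of Mia. The list stood at 7960 CPM in the cells of the leading cluster that were not members. Of the other clusters the ependymal-like one was highest, at 4701 CPM.

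Hormone genes of the pars tuberalis and the pituitary were low. Of 4 such genes with a UMI in members, 2 had at least 10 and both were lower past 2-fold in both libraries. The granin gene Chga had 6 and 4 UMIs, and Chgb had 14 and 16. Cga, the shared subunit of the glycoprotein hormones, had 3 and 2 UMIs in members, and Tshb was at 0. Summed over the list, members stood at 409.6 and 410.7 CPM and the pars tuberalis-like cluster at 96742 CPM. In the members of the leading cluster alone the sum was 94.8 CPM, so most of these UMIs lay in the members outside it. The 20 other cells of the leading cluster differed here, with 3968 CPM, of which Cga made 3842 CPM in 8 cells.

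Marker lists of other epithelia and of brain cells differed from one another. Scgb1a1, the defining secretoglobin of airway club cells, had no UMI in members. Ttr, which defines the choroid plexus, had none either, and that list summed to 285 and 286 CPM, against 289 and 153 CPM in other cells. Its folate receptor gene Folr1, with 10 and 4 UMIs, was the 1 gene of the list with at least 10 and was higher past 2-fold in both libraries. The arachnoid barrier and mesothelium list stood higher in members, at 356 and 554 CPM against 127 and 136 CPM. Its 1 gene with at least 10 UMIs, the epithelial transcription factor Klf5, had 12 and 23 UMIs in 9 members of each library and was higher past 2-fold in both. Of the 9 genes of the olfactory sustentacular list, 5 had a row in the tables, with 1 UMI in all members. Oligodendrocyte genes summed to 569.9 and 357 CPM against 15467 and 9982 CPM in other cells, and neuron genes to 5146 and 4607 CPM against 10862 and 12756 CPM. In the members of the leading cluster alone the neuron sum was 735 CPM. The astrocyte list summed to 1318 and 696 CPM, against 697 and 499 CPM. Of its genes, Gja1 (38 and 14 UMIs) and F3 (27 and 14 UMIs) were higher past 2-fold in both libraries, whereas Gfap, Agt and Ntsr2 were at 0.

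**Figure D3:**
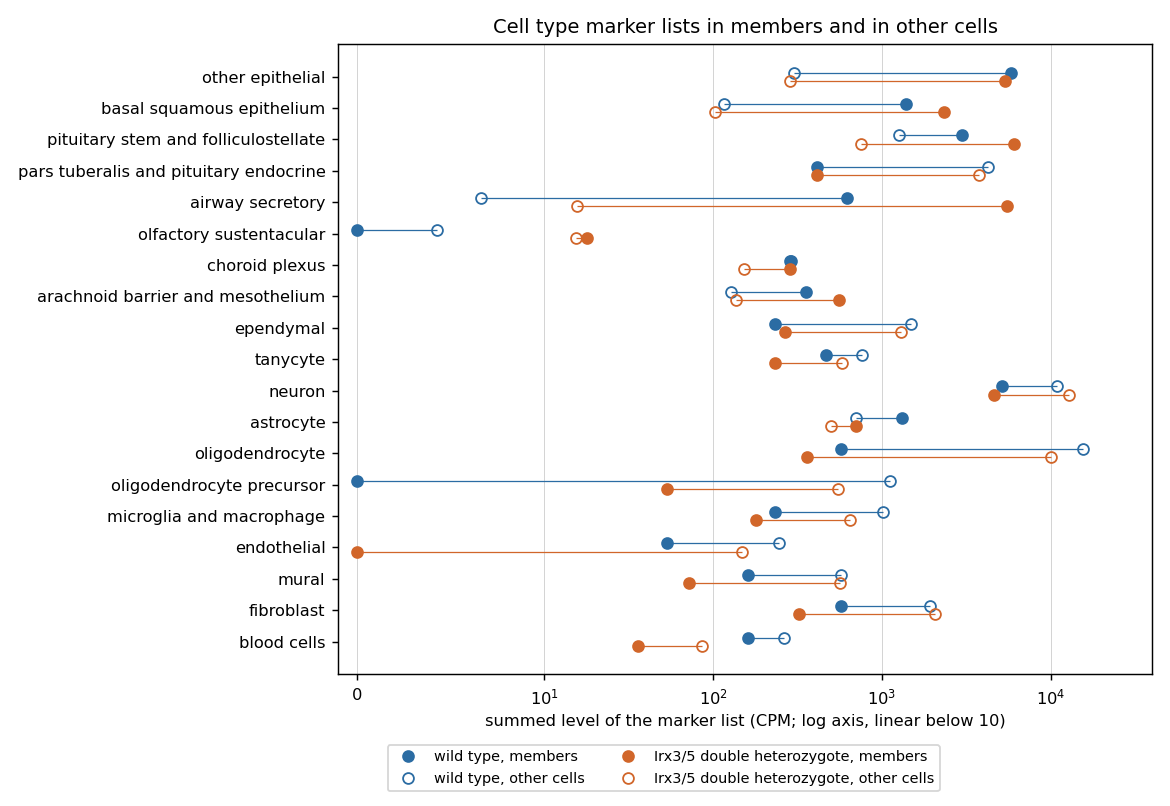
Filled circles give the summed level of each marker list in members and open circles that in other cells of the same library, in CPM on a log axis that is linear below 10. The other epithelial list stands at 5770 and 5375 CPM in members against 299.6 and 286 CPM in other cells, and the oligodendrocyte, neuron and pars tuberalis lists stand below the other cells.

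Enzymes of foreign compound and retinoid metabolism formed another large group in members. Of 25 listed genes 15, Cyp2f2 among them, had at least 10 UMIs, and 10 others were higher past 2-fold in both libraries, with none lower and a median log2 fold of 2.79. Cbr2, a carbonyl reductase known from the airway, had 35 UMIs in 15 and 85 UMIs in 18 members. This was 293-fold (138 to 692) and 251-fold (148 to 450) the level of other cells. It was also the only gene of 10 on the airway secretory list that passed 2-fold in both libraries. The monooxygenase Fmo2 had 30 and 43 UMIs in 16 and 15 members, and the aldehyde dehydrogenase Aldh3a1 had 12 and 10 UMIs. The retinoid binding gene Crabp2 (14 and 4 UMIs) was higher past 2-fold in both libraries as well. Aldh1a1 and Aldh1a3, which make retinoic acid, were at 0.

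Secreted and defence genes were also frequent. Of 18 listed genes 10 had at least 10 UMIs, and 8 were higher past 2-fold in both libraries. Wfdc2, a secreted protease inhibitor, had 64 and 57 UMIs in 16 and 11 members. It was 58.0-fold (41.2 to 81.4) and 64.9-fold (43.0 to 98.5) the level of other cells. In the double heterozygote 1 cell held 40 of its 57 UMIs. The chaperone clusterin (Clu) had 104 and 67 UMIs, at 3.64-fold (2.96 to 4.43) and 2.22-fold (1.71 to 2.84), and it was found in 89.0% of ependymal-like cells too. The small heat shock gene Hspb1 was the most widely detected gene named here, in 32 of 38 and 26 of 28 members with 198 and 228 UMIs. Its near-identical copy Hsp25-ps1 was counted with 109 and 61 UMIs, so reads may be split between them and both values are uncertain.

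Among the 15 genes with the highest folds of members over other cells in both libraries, most were little read elsewhere. Fxyd3, a regulator of the sodium pump, had 31 and 27 UMIs in 13 and 12 members, against 4 and 2 UMIs in all other cells. The surface protein Ly6d had 12 and 62 UMIs, against 1 and 1, but 64.9% of its UMIs lay in 1 cell. The secreted matrix protein Spon2 had 15 and 7 UMIs in 8 and 4 members, and Gpha2, a glycoprotein hormone subunit gene, 12 and 8 UMIs in 8 and 4 members. Fermt1, an integrin adaptor of epithelia, had 6 and 6 UMIs in 6 and 5 members.

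Within the leading cluster the members did not share 1 pattern. A division by Mia and by Krt5 or Krt14, made after the data were seen, showed that these genes rarely met in a cell. Over all members 33 had Krt5 or Krt14 and 15 had Mia, and 2 had both, 1 of them within the leading cluster. Inside that cluster 27 members had Krt5 or Krt14, 13 had Mia without them, and 19 had Cyp2f2 with neither. Cyp2f2 stood at 2724, 3451 and 2091 CPM in these sets. The rule requires it in every cell without Krt5 or Krt14, so its presence there describes the rule. In the keratin set 21 of 27 cells had it. Median depths were 1306 and 1132.5 UMIs per cell for the keratin set and 1086 and 1508 for the Mia set. With wild type barcodes equal in their first 11 bases joined, 5 wild type and 8 double heterozygote members had Mia.

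Members with Krt5 or Krt14 had more Krt17 than those with Mia. Krt17 stood at 2384 CPM in 17 of 27 cells, against 92.0 CPM in 2 of 13 cells with Mia. Without the deepest of these 27 cells, a double heterozygote member described further on, Krt17 was 1246 CPM. Trp63 had 17 UMIs in 9 cells of the keratin set and 0 in the Mia set, but its 414 CPM in the keratin set was close to the 465 CPM in the 19 cells with neither. Gpha2 had 19 UMIs in 11 cells of the keratin set and none in the other members of the cluster. The small matrix proteoglycan gene Dcn, also a main fibroblast gene, had 30 UMIs in 14 cells of the keratin set and 0 in the Mia set. Cbr2 stood at 2165 CPM, or 1428 CPM without that cell, against 552 CPM, and Aldh3a1 at 438 CPM against 46.0 CPM.

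Members with Mia carried more Epcam and a different claudin. Epcam stood at 3037 CPM in 12 of 13 cells, against 754 CPM in 17 of 27 cells with Krt5 or Krt14, a ratio of 4.03 (2.59 to 6.39). Cldn9, a tight junction claudin, had 17 UMIs in 8 cells with Mia and 0 in the keratin set. All 3 UMIs of Cldn3 and all 11 of Cldn7 in the keratin set lay in the deepest cell, while the Mia set had 11 in 4 cells and 17 in 7 cells. Cpxm2 had 17 UMIs in 7 cells against 3 in 2 cells, and Rbpms 14 in 7 cells against 2 in 2 cells. Sox9 stood at 1012 CPM against 389 CPM (2.601, 1.31 to 5.30), but only the double heterozygote had this direction, with 1408 against 245 CPM, while in wild type the 3 and 11 UMIs gave 364 against 532 CPM. Sox2 had 6 UMIs in each set, at 276 and 146 CPM (1.89, 0.510 to 7.08), a difference not detectable at this depth. The 3 UMIs of Lhx3 lay in 3 cells of the Mia set.

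Summed, the 19 members with Cyp2f2 and none of Krt5, Krt14 or Mia held genes of both other sets, but the cells were unlike. They had Krt17 in 9 cells and Trp63 in 7 cells, at 790 and 465 CPM, and Epcam in 13 cells at 2277 CPM. Epcam had 47 UMIs in 12 wild type cells (2746 CPM) and 2 UMIs in 1 double heterozygote cell (454 CPM). In 3 of the 19 members, all wild type, the neuropeptide gene Nmb had 74 UMIs. Those 3 members had 11, 12 and 4 UMIs of Epcam and none of Krt17 or Trp63. Nmb was at 0 in both other sets, while the 20 cells of the leading cluster that were not members had 211 UMIs in 8 cells. Those cells also had Epcam at 3666 CPM and Clu at 4445 CPM, with Krt17 at 25.1 CPM.

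**Figure D4:**
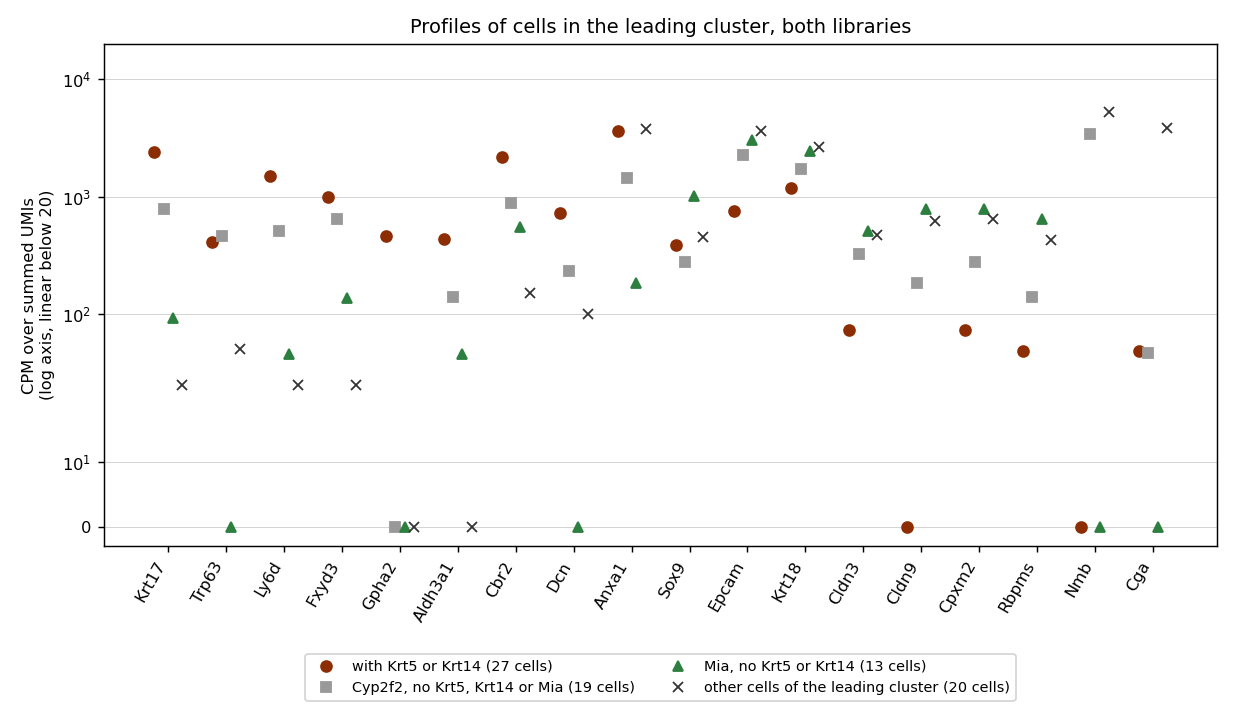
Points give the CPM of each gene over the summed UMIs of 4 sets of cells in the leading cluster, on a log axis that is linear below 20, with both libraries joined. Krt17, Fxyd3 and Gpha2 are highest in cells with Krt5 or Krt14, Ly6d falls from 1508 to 425 CPM there and Anxa1 from 3649 to 608 CPM without the deepest cell, Cldn9 and Cpxm2 are high in cells with Mia and in the cells that are not members, and Cga stands apart in the latter.

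Some airway secretory and defence genes came from very few cells. A double heterozygote member of 2285 UMIs held all 139 UMIs of Scgb3a1, 30 of the 32 UMIs of the antimicrobial lectin Reg3g and 33 of the 42 of Bpifb1. The same cell had 9 UMIs of Cyp2f2, 40 of Wfdc2 and 23 of the protease inhibitor Spink5, and none of Krt5, Krt14, Krt17 or Scgb1a1. A second double heterozygote member, of 8196 UMIs and 3189 genes, held 23 UMIs of Cyp2f2, 24 of Krt5 and 11 of Krt14, the most UMIs of the 3 genes of the rule in any cell. It also held 57 of the 117 UMIs of Krt17, 130 of the 186 of Anxa1, 48 of the 74 of Ly6d, 101 of the 124 of Spink5 and all 5 of Krt6a. No wild type member had a UMI of Scgb3a1, Reg3g, Bpifb1 or Spink5.

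Between genotypes, summed levels in members differed for many genes in both directions, in counts that are small. Of 2484 genes with at least 10 UMIs in members, 15.7% were past 2-fold higher in the double heterozygote and 13.8% past 2-fold lower, and the counting interval left out 1 for 14.5%. The median log2 ratio over these genes was 0.0039. With 38 cells against 28, a few deep cells carry such sums. The sums also hold the members outside the leading cluster, which did not carry the epithelial pattern. In the double heterozygote these included cells of 11047 and 6086 of the 56002 UMIs. In wild type the deepest of them had 6839 of 56155. CPM of epithelial genes is therefore lowered more in the double heterozygote than in wild type. Fewer cells of a kind and less RNA in each cannot be told apart in a sum.

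Cyp2f2 levels had overlapping intervals, 1994 CPM (1642 to 2400) in wild type and 2178 CPM (1809 to 2601) in the double heterozygote. Krt5 stood at 695 CPM (494 to 949) and 714 CPM (510 to 973). Its log2 ratio of 0.04 went to -1.03 without the deep double heterozygote member named above, so 1 cell sets it. Krt17 likewise went from 0.83 to -0.97 and Anxa1 from 1.90 to -0.94. Cbr2 kept its sign, at 1.27 with that cell and 0.53 without it. The latter is short of 2-fold, and no interval was computed for it.

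Epcam was lower in double heterozygote members, with a ratio of 0.555 (0.387 to 0.786). It was -0.84 on the log2 scale, -0.73 without the deep member and -0.59 over members of the leading cluster alone. Clu was lower as well, at 0.646 (0.468 to 0.887). Without the 4 wild type members with Nmb, left out after the data were seen, the Clu ratio was 0.9998 (0.692 to 1.45). That of Epcam was 0.660 (0.450 to 0.963) and that of Wfdc2 1.62 (1.02 to 2.605). For Wfdc2, 40 of the 57 double heterozygote UMIs lay in 1 cell. The members with Nmb and those outside the leading cluster were not left out together. Mia was higher, at 2.58 (1.74 to 3.87), but its UMIs lay in 7 and 8 members and 39.4% of them in 1 cell. Its log2 ratio went from 1.35 to 0.33 when each cell's CPM was averaged. For Krt18 (0.831, 0.586 to 1.18), Wfdc2 (0.893, 0.614 to 1.30) and Fxyd3 (0.873, 0.502 to 1.51) an equal level lay within the interval.

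**Figure D5:**
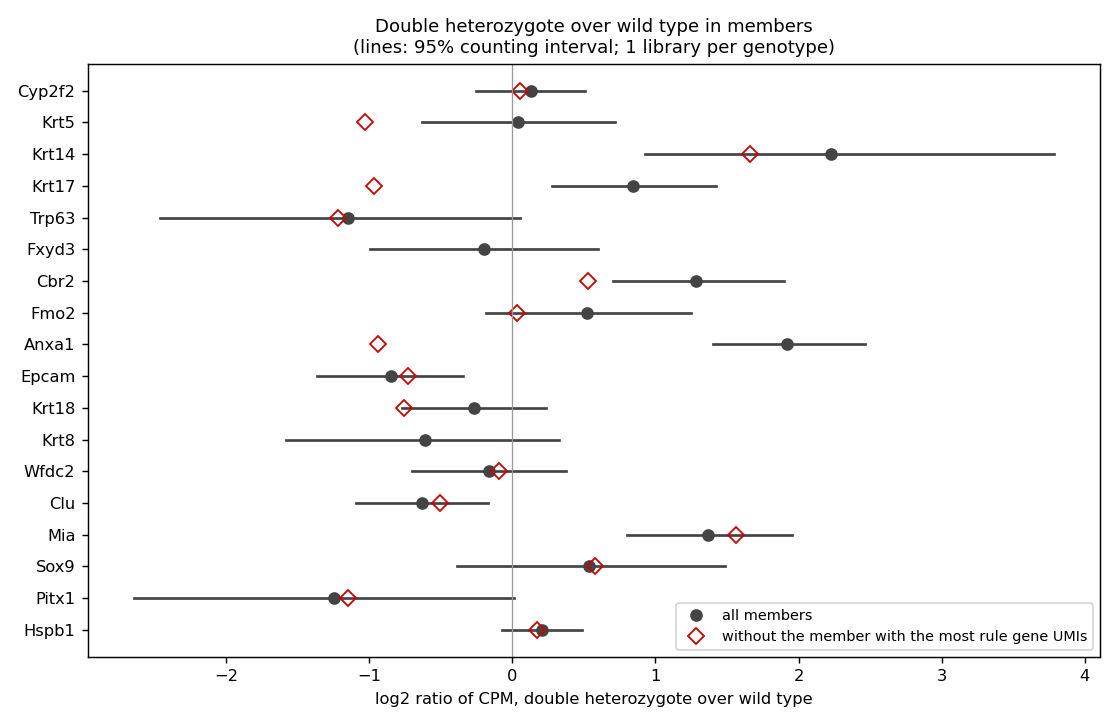
Filled points give the log2 ratio of CPM in double heterozygote over wild type members with its 95% counting interval, and open diamonds the ratio, with 0.5 added to each sum, without the double heterozygote member with the most UMIs of the 3 genes of the rule. Krt5, Krt17 and Anxa1 change sign between the points, and Epcam stays below 0.

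Of the genes ranked highest in double heterozygote members, most were single cells. Scgb3a1, Spink5 and Reg3g came from the 2 cells described above and Bpifb1 from these and 1 other cell, and the 122 UMIs of the neuropeptide Gal and 26 of 27 of Crabp1 each from 1 cell. Sfn (4 and 27 UMIs, 6.77, 2.36 to 26.6), the cotransporter Slc12a2 (4 and 26 UMIs in 4 and 7 members) and Tonsl (4 and 27 UMIs in 2 and 12 members) were spread over more. Among the lowest, Nmb had 75 UMIs in 4 wild type members and 0 in the double heterozygote. Thbs1, a secreted matrix glycoprotein, had 28 UMIs in 14 wild type and 4 in 3 double heterozygote members, a ratio of 0.143 (0.0365 to 0.409). The other 8 lowest were Rpl31-ps8, CT868733.2 and 6 genes with Gm names, such as Gm10073 and Gm19244. The pseudogene Rpl31-ps8 had 39 and 5 UMIs, but other cells also stood apart, at 281 and 83.4 CPM. Reads of such copies cannot be told from those of their parent genes, so these values are uncertain.

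Irx3 and Irx5 had no UMI in members of either library. Over all used cells Irx3 had 31 and 15 UMIs and Irx5 16 and 6, so members gave no check of the genotype. A count of 0 in 38 and 28 cells does not show that the genes were off.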

How the data were processed

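Sorted live cells of the arcuate nucleus–median eminence region were profiled by Drop-seq, 1 pooled library per genotype. The deposited tables hold whole-number UMI counts per gene and barcode, made by the authors. In a merged table the authors deposited natural log values, which were read only for which cells it keeps. Per the submitters' processing notes, bcl2fastq, Picard, STAR 2.6.0b, Seurat 3 and the build mm10 were used. The annotation, and how reads matching several gene copies were treated, is not stated there.

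A cell was used if it had 300 genes or more and no more than 20% of its UMIs in mitochondrial genes. No sample columns were left unused. Both libraries were clustered (scanpy 1.11.5, leidenalg 0.10.2, resolution 1, 30 components, 2000 variable genes, 20 neighbours) without the 3 genes of the rule, and Scrublet was run at an expected rate of 5%. UMIs were summed over members per library and scaled to CPM. Shares carry Clopper-Pearson, sums Poisson and ratios conditional binomial intervals (scipy 1.17.1), at 95%. PCR and capture error are not covered. No p-values are given, since each genotype has 1 library. Genes were called past 2-fold with at least 10 UMIs in members. Where other cells had 0 UMIs a floor of 3 counts stood in. Log2 ratios between genotypes add 0.5 to each sum. The intervals were tested on simulated sums drawn as Poisson counts, the kind of error that they assume. UMIs gathered in single cells were not simulated, so that test does not cover them.

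Named genes were those of the rule and Epcam, up to 4 per list with the most member UMIs, defining genes at 0, the 15 highest folds in both libraries and the 10 highest and 10 lowest genotype ratios among genes with at least 20 UMIs whose interval left out 1. Further list genes, the sets within the leading cluster and the cells singled out were chosen after their values were seen. The members and the 25 lists were chosen with earlier results of these data known.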

Additional observations from a re-analysis of the deposited data

How the results depend on the processing

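The member share, the share in the leading cluster and the share with other epithelial genes were recomputed with other filters on cells, rules for members, clusterings and sets of cells, and gene counts with other levels and UMI minimums. With each cell thinned to 500 UMIs, members chosen anew were 0.878% (wild type) and 1.67% of cells, a ratio of 1.90 (0.980 to 3.71) against 1.19 unthinned. Of the 19 wild type members chosen this way 47.4% had 2 other epithelial genes, and 0.0585% of cells outside the leading cluster were members. With at least 2 UMIs of the 3 genes, members were 0.956% and 1.62% of cells, a ratio of 1.69 (0.914 to 3.14), 97.9% of members lay in the leading cluster, and the gene counts were 43 lower than other cells, 199 higher in the double heterozygote and 206 lower there. The main counts were 371 higher and 70 lower than other cells, and 391 higher and 342 lower in the double heterozygote. Members by Cyp2f2 only lay in the leading cluster in 96.4%, and members by Krt5 or Krt14 only were 0.790% and 0.943% of cells. The mean over cells gave 177 genes lower than other cells. A minimum of 5 UMIs, which tests more genes, gave 704 and 164 against other cells and 1089 and 888 between genotypes, and one of 30 UMIs, which tests fewer, gave 131 and 17, and 70 and 57. Members of the leading cluster alone, added once the data had been seen, gave 217 genes higher in the double heterozygote. The cause of the other shifts was not tested. Of 133 log2 values of named genes between genotypes 117 kept their sign, and of 126 against other cells 125 did. Anxa1 reversed between genotypes, to -0.94, without the member with the most UMIs of the 3 genes. No paired analysis was possible because each genotype has 1 pooled library. Depth limits every value here, since members with a UMI of Cyp2f2 held a median of only 2 and 3 of them.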
